A study of Mus musculus with 18 samples.

Results

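The zinc-dependent histone deacetylases other than Hdac3 were followed in bone marrow-derived macrophages (BMDMs) of a myeloid Hdac3 knockout model. The 10 genes Hdac1, Hdac2, Hdac4, Hdac5, Hdac6, Hdac7, Hdac8, Hdac9, Hdac10 and Hdac11 were taken by symbol from the 49315 genes counted in each of 18 libraries, and the question was whether any of them was higher in libraries labelled KO. The KO label stands for BMDMs of M-HDAC3-/- mice, C57BL/6J animals in which Cre driven by the Lyz2 (LysM) promoter removes a floxed exon of Hdac3 in myeloid cells. The WT label stands for BMDMs that the paper describes as coming from floxed mice, HDAC3 f/f. Each genotype label had 3 biological replicates left untreated, 3 cocultured for 45 min with non-apoptotic K562 cells (NACs) and 3 cocultured for 45 min with apoptotic K562 cells (ACs). K562 is a human leukemia cell line, made apoptotic here by UV-B light for 15 min followed by 2 h in culture, and the BMDMs were kept for 5 h after the K562 cells had been washed off. The ages of the mice are not given in the sources used here, and the study's methods give 3 animals a group without saying whether libraries of one genotype label come from the same animals across treatments.

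Histone deacetylases remove acetyl groups from lysines of histones and other proteins, and the zinc-dependent family is sorted into classes by sequence. Class I enzymes (Hdac1, Hdac2, Hdac3, Hdac8) are mainly nuclear, and Hdac1, Hdac2 and Hdac3 work as the catalytic subunits of corepressor complexes, Hdac3 in those built on NCoR and SMRT. Class IIa proteins (Hdac4, Hdac5, Hdac7, Hdac9) bind MEF2 transcription factors, move between nucleus and cytoplasm, have little catalytic activity of their own and recruit the Hdac3 complexes. Class IIb (Hdac6, Hdac10) acts largely in the cytoplasm, and Hdac11 stands alone in class IV. In macrophages these enzymes are known for restraining or permitting inflammatory gene programs.

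Library totals ranged from 4704491 counts (KO-untreated replicate 1) to 26421267 counts (KO-untreated replicate 2), with a median of 16477929. The level of Hdac3 itself did not follow the genotype labels. In CPM (counts scaled to a common library total and corrected by trimmed mean of M-values, TMM), Hdac3 stood at 3.38, 44.4 and 32.0 in WT-untreated replicates 1 to 3 and at 38.7, 11.4 and 74.6 in KO-untreated replicates 1 to 3. With NACs it stood at 48.8, 44.0 and 11.6 under the WT label and 4.66, 34.1 and 42.6 under the KO label. With ACs the values were 7.13, 38.3 and 29.7 under the WT label and 39.8, 10.1 and 17.9 under the KO label. The groups overlapped under every treatment, and over all treatments the log2 difference was -0.04 (SE 0.47, edgeR quasi-likelihood test, adjusted p = 0.982). These counts cover the whole gene while the allele lacks a single exon, so they test neither the deletion nor the labels. Over 13662 expressed genes, 14 of 18 libraries correlated best with a library of another group label and 9 of 18 with one of the other genotype label. All 3 WT-untreated libraries correlated best with a KO-NAC library (r 0.978 to 0.987), and WT-NAC replicates 1 and 3 with KO-untreated replicate 2 (r 0.968 and 0.98). Whether every library carries the label of its own group was not tested, and an exchange of labels would change what each genotype difference below means. The groups are therefore named by their labels throughout, and each difference is one between libraries as labelled. Mean GC content of the counted genes was 51.7% to 52.2% in the WT-untreated libraries and 53.7% to 54.7% in the KO-untreated ones, and KO-untreated replicate 1 had 10.8% of its counts in long noncoding genes against at most 4.71% elsewhere. The same groups did not overlap in the share of counts in ribosomal protein genes (9.77% to 12.3% in WT-untreated, 5.06% to 9.18% in KO-untreated libraries) or in mitochondrial genes (0.496% to 0.621% and 0.272% to 0.434%). All 10 macrophage markers were found, their summed level running from 7260 to 20600 CPM. The 10 granulocyte markers summed to between 255 and 1300 CPM, and the 8 dendritic cell markers were all under 1 CPM by median. In bulk RNA, fewer cells of a type and less RNA per cell cannot be told apart.

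Hdac5 and Hdac1 were the most abundant of the 10 transcripts. Per transcript length and library depth (TPM), the median over 18 libraries was 31.0 TPM for Hdac5 and 28.8 TPM for Hdac1, and Hdac5 was the higher of the pair in 9 of 18 libraries, so their order is not fixed. A clear step followed, since Hdac1 stood above Hdac10 in 18 of 18 libraries with a median 4.25 times as high. Hdac10 (6.77 TPM), Hdac7 (5.86 TPM) and Hdac2 (4.89 TPM) made up the middle of the order, and neighbours there changed places: Hdac10 was above Hdac7 in 11 libraries and Hdac7 above Hdac2 in 13. Hdac6 (2.72 TPM), Hdac8 (1.47 TPM), Hdac4 (1.13 TPM) and Hdac11 (0.786 TPM) came next, with Hdac8 above Hdac4 in 10 of 18 libraries. Hdac9 was last in all 18 libraries compared with Hdac11, at a median of 0.0615 TPM and 0 to 24 counts. For comparison, Hdac3 had a median of 13.6 TPM. Every library held at least 10 counts of Hdac1, Hdac2, Hdac4, Hdac5, Hdac6, Hdac7 and Hdac10, while Hdac8 reached 10 counts in 17 libraries, Hdac11 in 15 and Hdac9 in 9.

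**Figure D1:**
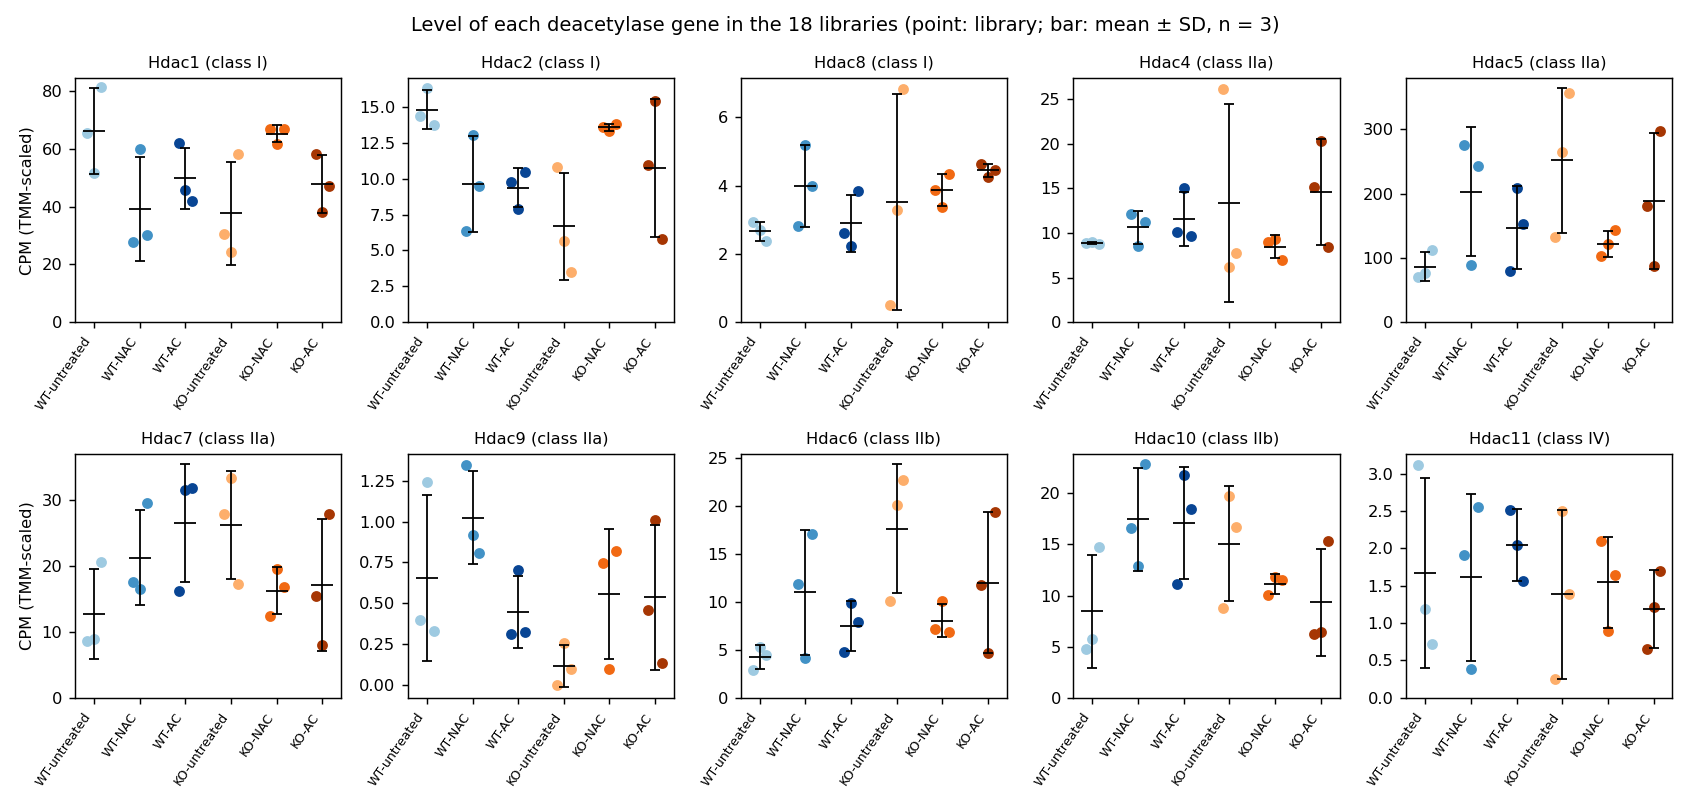
Level of each deacetylase gene in TMM-scaled CPM (vertical axes, linear, a separate scale in each panel) in the 6 groups (horizontal axis). Points are single libraries and bars are the mean ± SD of 3. Hdac6 and Hdac5 sit highest in the KO-untreated libraries and Hdac2 lowest there, while the KO and WT groups with ACs overlap for 9 of the 10 genes.

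The promoters of Hdac6, Hdac5 and Hdac2 are shown because these 3 genes had the largest estimated differences between untreated libraries, Hdac5 and Hdac6 higher and Hdac2 lower under the KO label. Each is the 250 bases before the RefSeq start on GRCm38.p6, read 5′ to 3′ on the strand of the gene, with capitals marking the letters GGGCGG of the GC box, the letters CCAAT of the CCAAT box or the letters CTANNNNTAG of the MEF2 site. Both strands were searched, also for the letters TGACGTCA of the cyclic AMP response element and the letters GAGGAAGT of the PU.1 site. Hdac6 lies on the minus strand at chrX:7947890-7948139, Hdac5 on the minus strand at chr11:102230173-102230422 and Hdac2 on the plus strand at chr10:36974294-36974543.
Hdac6: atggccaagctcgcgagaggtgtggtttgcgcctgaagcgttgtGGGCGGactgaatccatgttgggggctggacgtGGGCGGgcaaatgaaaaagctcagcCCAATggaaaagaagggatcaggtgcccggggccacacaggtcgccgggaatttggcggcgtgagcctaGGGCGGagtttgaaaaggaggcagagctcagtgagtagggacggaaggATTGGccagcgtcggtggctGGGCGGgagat
Hdac5: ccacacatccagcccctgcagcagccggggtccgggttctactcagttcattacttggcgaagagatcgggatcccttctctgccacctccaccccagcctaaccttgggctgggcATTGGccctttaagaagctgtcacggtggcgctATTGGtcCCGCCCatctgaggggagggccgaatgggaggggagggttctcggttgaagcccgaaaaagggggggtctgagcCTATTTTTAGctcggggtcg
Hdac2: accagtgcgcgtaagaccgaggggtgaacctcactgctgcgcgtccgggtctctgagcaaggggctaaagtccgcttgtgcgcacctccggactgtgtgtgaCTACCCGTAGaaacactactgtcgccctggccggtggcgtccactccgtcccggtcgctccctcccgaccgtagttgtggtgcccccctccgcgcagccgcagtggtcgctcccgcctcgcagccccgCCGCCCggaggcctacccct

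The Hdac6 window held 4 GC boxes and 2 CCAAT boxes. The Hdac5 window held 1 GC box, 2 CCAAT boxes and 1 match to the MEF2 letters, and the Hdac2 window 1 GC box and 1 match to the MEF2 letters. No letters of the cyclic AMP response element or the PU.1 site were in these 3 windows. Of 32851 RefSeq promoter windows of 250 bases, 32.7% held a GC box, 33.8% a CCAAT box, 3.2% the MEF2 letters, 1.55% those of the cyclic AMP response element and 2.44% those of the PU.1 site. A match is only a description of these letters. RefSeq windows were at hand for 8 of the 10 genes, all but Hdac1 and Hdac10.

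Under the KO label, 1 of the 10 genes was called higher, in 1 of 4 comparisons. Hdac6 passed the threshold (adjusted p under 0.05 over all genes tested) in untreated BMDMs, where 11.6% of the 12101 genes tested were called and 3.04% were called higher. That is 1 of 9 deacetylase genes tested, since Hdac9 had too few counts. With ACs none of the 9 tested was called by edgeR, against 3.75% of 12304 genes, and none had an unadjusted p under 0.05, against 24.3%. With NACs none of 10 was called, against 0.864% of 11923 genes, and 1 of them (Hdac1) had an unadjusted p under 0.05, against 24.2%. Over all 3 treatments, with treatment as a term in the fit and 9 libraries against 9, none of 9 was called and none had an unadjusted p under 0.05, while 0 of 11893 genes (0%) were called and 1584 (13.3%) had an unadjusted p under 0.05. That fit takes the genotype difference as the same under every treatment, so differences of opposite sign cancel in it. Hdac1 (-0.93 untreated, 0.75 with NACs) and Hdac5 (1.46 and -0.70) had such signs. Libraries of one label may share animals across treatments, so its p-values may be too small. DESeq2 and limma-voom also called none of the 10 genes with ACs, with NACs or over all treatments. Of all genes tested, the DESeq2 Wald test called 5.61%, 1.91% and 0.0168% there, and limma-voom 3.28%, 0.319% and 0%. Untreated, the 9 genes had a median log2 difference of 0.43 against 0.06 for all genes tested. The medians were 0.17 with ACs, -0.34 with NACs and -0.05 over all treatments, so the direction of the median was not the same under each treatment.

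**Figure D2:**
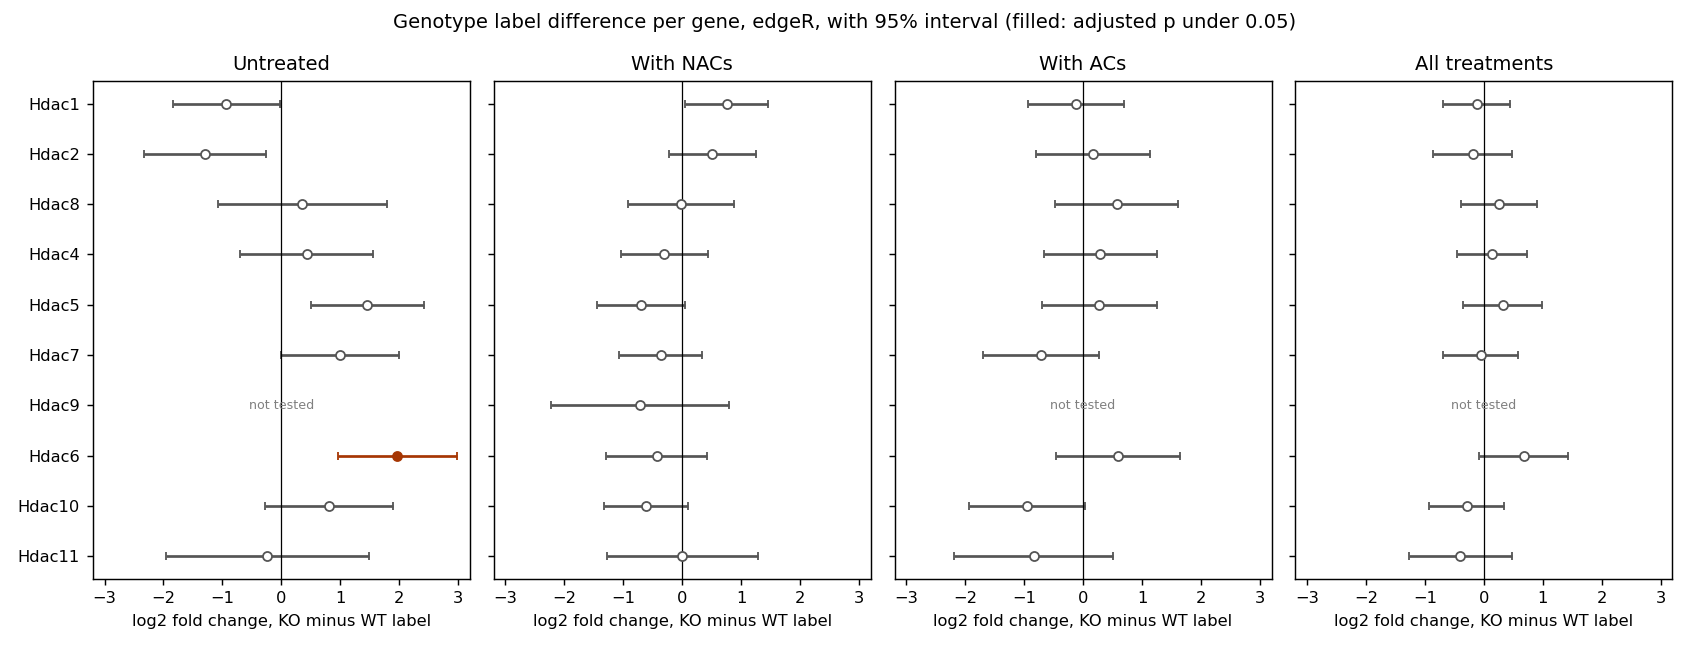
Log2 fold change between libraries labelled KO and WT (horizontal axes, positive is higher under the KO label) for each gene, untreated, with NACs, with ACs and over all treatments. Points are edgeR estimates with their 95% intervals, and only Hdac6 in untreated BMDMs, at 1.97, is filled as called. Most intervals cross 0, and those of Hdac1, Hdac2, Hdac5 and Hdac6 that do not lie in the untreated panel, apart from Hdac1 with NACs.

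Hdac6 (chromosome X, 7930120 to 7947889, minus strand), the cytoplasmic deacetylase of tubulin, was the gene called. Its CPM in untreated BMDMs was 2.92, 5.33 and 4.45 under the WT label and 10.1, 20.1 and 22.7 under the KO label. The lowest KO library was above the highest WT library. The log2 fold change was 1.97 (SE 0.47, 95% interval 0.96 to 2.99, edgeR adjusted p = 0.0295), and the two-sided exact permutation test gave p = 0.1, the smallest that 3 against 3 allows. Groups that do not overlap were common in this comparison, in 40.9% of all genes tested and in Hdac2, Hdac5 and Hdac6 of the 9. With NACs, Hdac6 stood at 11.9, 4.12 and 17.0 CPM under the WT label and 7.18, 10.1 and 6.88 under the KO label. The KO values lay inside the spread of the WT values, with a log2 difference of -0.43 (95% interval -1.30 to 0.43). With ACs it stood at 4.72, 9.85 and 7.85 CPM under the WT label and 11.8, 4.71 and 19.4 under the KO label. Those groups also overlapped, and the log2 difference was 0.59 (95% interval -0.47 to 1.64, and 0.105 to 1.04 on leaving out single libraries). Over all treatments it was 0.67 (SE 0.36, 95% interval -0.08 to 1.42, edgeR adjusted p = 0.419), the highest of the 9 genes tested.

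The call of Hdac6 in untreated BMDMs held under 8 of 16 other ways of processing, and the estimate stayed between 1.41 and 2.22. It was lost with library totals alone (1.41, edgeR adjusted p = 0.0716) and once GC content and gene length were modelled as an offset (1.48, edgeR adjusted p = 0.0908), under which 0 of 12101 genes were called. It was also lost on leaving out any 1 of the 6 libraries other than KO-untreated replicate 1, the shallowest, with a highest adjusted p of 0.133 by edgeR. Without KO-untreated replicate 1, the count of genes called among the 10 was 4 (Hdac2, Hdac5, Hdac6 and Hdac10), with Hdac6 at 2.48e-05 by edgeR's adjusted p, while 5887 of 12714 genes (46.3%) were called. The gaps between these groups in mean GC content and in the ribosomal protein and mitochondrial shares moved with the result, and their part was not tested beyond that offset for GC content.

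**Figure D3:**
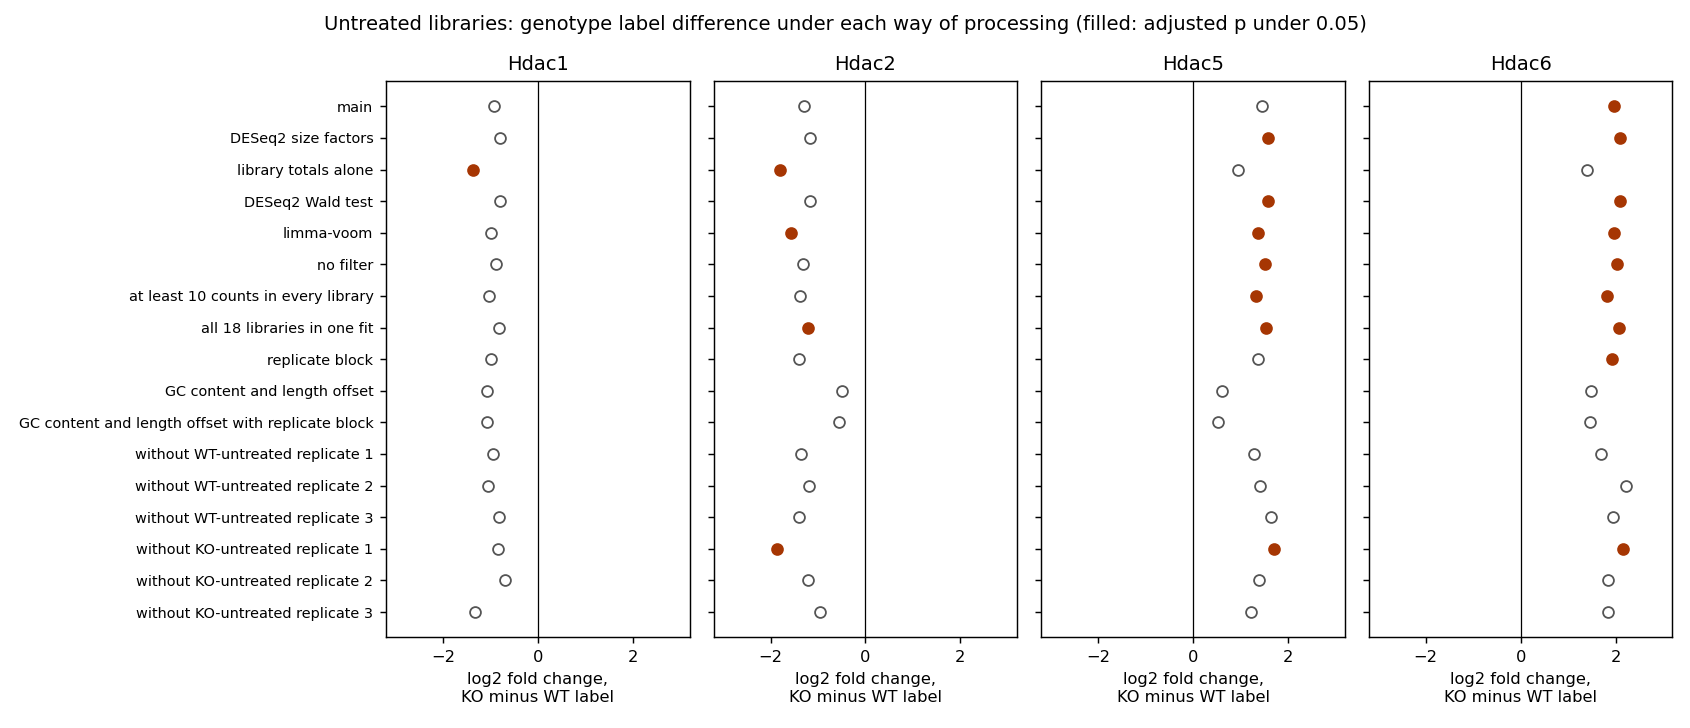
Log2 fold change between untreated libraries labelled KO and WT (horizontal axes) for Hdac1, Hdac2, Hdac5 and Hdac6 under the main processing and 16 alternatives (vertical axis). Filled points have an adjusted p under 0.05. The sign is the same in every row for these 4 genes, while the calls come and go, with 8 filled alternatives for Hdac6 and 7 for Hdac5.

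Hdac10 (chromosome 15, 89123307 to 89128700, minus strand), the other class IIb enzyme and a deacetylase of polyamines, was called in no genotype comparison of all 3 replicates a group. Untreated, it read 4.77, 5.79 and 14.8 CPM under the WT label and 8.80, 19.8 and 16.7 under the KO label. With NACs it read 16.6, 12.9 and 22.8 under the WT label and 10.1, 11.9 and 11.5 under the KO label. There the groups did not overlap, KO below WT, as for 27% of all genes tested in that comparison. The log2 difference of Hdac10 was 0.80 untreated (95% interval -0.28 to 1.89), -0.62 with NACs (-1.33 to 0.09) and -0.95 with ACs (-1.93 to 0.03). Untreated, leaving out single libraries gave 0.47 to 1.39, with 1 call, at 0.99 without KO-untreated replicate 1 (edgeR adjusted p = 0.0416), and the GC content and length offset gave 0.0046.

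Hdac5 (chromosome 11, 102194432 to 102230166, minus strand), the most abundant class IIa member, stood just outside the threshold in untreated BMDMs. It read 69.8, 76.4 and 112.5 CPM under the WT label and 132.8, 265.5 and 356.8 under the KO label. The groups did not overlap. The log2 fold change was 1.46 (SE 0.45, 95% interval 0.50 to 2.42, edgeR adjusted p = 0.0501), and 7 of 16 alternatives called it, among them DESeq2 (adjusted p = 0.00673) and limma-voom (adjusted p = 0.0439). With the GC content and length offset the value was 0.62. With NACs Hdac5 read 276.4, 88.6 and 243.4 CPM under the WT label and 102.3, 120.9 and 142.8 under the KO label. These groups overlapped, with a log2 difference of -0.70 (95% interval -1.45 to 0.06, edgeR adjusted p = 0.234, and -0.96 to -0.37 on leaving out single libraries). With ACs it read 79.8, 208.9 and 152.7 CPM under the WT label and 180.5, 87.6 and 297.6 under the KO label. Here too the groups overlapped, at a log2 difference of 0.28 (95% interval -0.70 to 1.25).

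The other class IIa genes were not called. Hdac7 (chromosome 15, 97792664 to 97844502, minus strand), known for its role in thymocytes and in macrophage metabolism and inflammation, ranged from 8.62 to 20.7 CPM in WT-untreated and from 17.3 to 33.4 CPM in KO-untreated libraries. Its log2 difference was 1.00 untreated (95% interval -0.01 to 2.00, edgeR adjusted p = 0.139), -0.36 with NACs (-1.07 to 0.35) and -0.71 with ACs (-1.69 to 0.27). Untreated Hdac7 was at 0.18 with the GC content and length offset, and with ACs leaving out single libraries gave -1.20 to -0.31. Hdac4 (chromosome 1, 91928779 to 92195699, minus strand), a partner of MEF2 factors, varied little in one group and widely in another. It read 8.89, 8.94 and 8.79 CPM in WT-untreated libraries but 26.2, 6.23 and 7.76 in KO-untreated ones, where the high value belongs to replicate 1. The untreated log2 difference of Hdac4 was 0.43 (95% interval -0.70 to 1.56) and -0.51 without that library. With NACs and ACs it was -0.31 (-1.04 to 0.43) and 0.29 (-0.66 to 1.25). Hdac9 (chromosome 12, 34047580 to 34917095, minus strand) had 6, 24 and 6 counts in WT-untreated and 0, 5 and 2 counts in KO-untreated libraries. In CPM the untreated groups did not overlap, KO below WT, and the two-sided exact permutation test gave p = 0.1, the smallest that 3 against 3 allows. The count of 0 was in KO-untreated replicate 1, the shallowest library (4704491 counts). Such a count allows up to 3, so the separation was not resolved. The counts of Hdac9 were below the filter of edgeR there. In the only genotype comparison that passed it, with NACs, the log2 difference of Hdac9 was -0.72 (95% interval -2.23 to 0.80). Leaving out single libraries gave -1.06 to -0.29.

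Hdac1 and Hdac2, the paired catalytic subunits of the NuRD, Sin3 and CoREST complexes, had estimates of opposite sign in the untreated and NAC comparisons. Hdac1 (chromosome 4, 129516104 to 129542713, minus strand) read 65.6, 51.6 and 81.2 CPM in WT-untreated libraries and 30.4, 24.4 and 58.0 in KO-untreated ones. The groups overlapped only through KO-untreated replicate 3. The log2 difference was -0.93 (95% interval -1.84 to -0.02, edgeR adjusted p = 0.128). With NACs it read 27.8, 60.0 and 30.0 CPM under the WT label and 66.9, 61.7 and 66.9 under the KO label. Every KO library was above every WT library, in a comparison where groups did not overlap for 27% of all genes tested. The same held for 3 of the 10 members there, Hdac1, Hdac2 and Hdac10. The log2 difference of Hdac1 was 0.75 (95% interval 0.06 to 1.45, unadjusted p = 0.0352, edgeR adjusted p = 0.184). Without WT-NAC replicate 2 it was 1.30 and called (edgeR adjusted p = 0.00735), as was Hdac5, in a fit that called 24.6% of all genes. With ACs it was -0.12 (95% interval -0.93 to 0.69). The WT-NAC and KO-NAC libraries also did not overlap in mean GC content (52.9% to 54.2% and 52.0% to 52.7%) or mitochondrial share (0.294% to 0.404% and 0.409% to 0.577%). Nor did they in the long noncoding share (2.79% to 4.16% and 1.25% to 2.23%) or in summed B cell markers (5.94 to 19.9 and 1.91 to 5.28 CPM). Ribosomal protein shares and summed macrophage markers overlapped. The part of these gaps was not tested beyond the offset for GC content.

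Hdac2 (chromosome 10, 36974544 to 37001889, plus strand) read 14.4, 16.3 and 13.7 CPM in WT-untreated libraries and 10.8, 5.67 and 3.53 in KO-untreated ones. All 3 KO values lay below the WT values. The log2 difference was -1.30 (SE 0.48, 95% interval -2.33 to -0.27, edgeR adjusted p = 0.078), and 4 of 16 alternatives called it: limma-voom (adjusted p = 0.0367), and edgeR with library totals alone (adjusted p = 0.0339), in one fit of all 18 libraries (adjusted p = 0.0423) and without KO-untreated replicate 1 (-1.86, adjusted p = 0.000527). It was -0.49 with the GC content and length offset. With NACs Hdac2 read 6.39, 13.0 and 9.52 CPM under the WT label and 13.7, 13.3 and 13.8 under the KO label. The KO libraries were tightly grouped just above the highest WT library, with a log2 difference of 0.51 (95% interval -0.23 to 1.26, and 0.33 to 0.89 on leaving out single libraries). With ACs the values were 9.75, 7.87 and 10.5 under the WT label and 11.0, 15.4 and 5.81 under the KO label. The groups overlapped, at a log2 difference of 0.17 (95% interval -0.80 to 1.14).

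Hdac8 (chromosome X, 102284639 to 102505359, minus strand), the class I enzyme that works outside those complexes and deacetylates cohesin, was not called. With ACs it read 2.62, 2.24 and 3.83 CPM under the WT label and 4.62, 4.25 and 4.46 under the KO label. It was the 1 of 9 tested genes whose groups did not overlap in that comparison, where 28.3% of all genes tested did not. The log2 difference was 0.57 (95% interval -0.47 to 1.61, edgeR adjusted p = 0.496), against -0.02 with NACs (-0.93 to 0.88) and 0.36 untreated (-1.07 to 1.79). The WT-AC and KO-AC libraries also did not overlap in total counts (9385094 to 14929827 and 18495507 to 22664522) or mitochondrial share (0.341% to 0.48% and 0.493% to 1.19%). Nor did their summed macrophage markers (10100 to 11900 and 15600 to 18100 CPM), while mean GC content and ribosomal protein share overlapped. The part of these gaps was not tested. Hdac11 (chromosome 6, 91156665 to 91174692, plus strand), the class IV enzyme, had 1 to 49 counts a library. Its log2 differences were -0.24 untreated (95% interval -1.96 to 1.49), 0.00 with NACs (-1.28 to 1.29) and -0.84 with ACs (-2.19 to 0.51). The intervals are wide at these counts.

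The genotype differences were then set against each other. No call was made for the difference with ACs against that with NACs, tested as an interaction term. By edgeR 0 of 10 genes were called, against 0.0765% of 13076 genes, and 0 had an unadjusted p under 0.05, against 20%. The DESeq2 Wald test called 0, against 2.71% of all genes tested, and limma-voom 0, against 0.0535%. The difference with NACs was called apart from the untreated one for 4 of 10 genes, against 34.8% of 13005 genes, in a test added after the single comparisons had been seen. Hdac1 (1.89, SE 0.55, edgeR adjusted p = 0.013) and Hdac2 (2.06, SE 0.60, edgeR adjusted p = 0.0131) had more positive genotype differences with NACs than untreated. Hdac5 (-1.92, SE 0.58) and Hdac6 (-2.16, SE 0.66), both at an edgeR adjusted p of 0.0156, had more negative ones. The share of members called is near the share of all genes called. With the GC content and length offset, Hdac1 (1.94) alone of the 10 was called, against 16.7% of all genes, while Hdac6 stood at -1.62 (edgeR adjusted p = 0.0553), Hdac2 at 0.94 and Hdac5 at -0.72. Without WT-NAC replicate 1, WT-NAC replicate 3 or KO-untreated replicate 2, Hdac5 and Hdac6 alone were called, against 22.4%, 26.3% and 29.9% of all genes. The count was 2 (Hdac1 and Hdac2) with library totals alone, against 30.8% of all genes. There Hdac5 and Hdac6 stood at -1.96 and -2.18 relative to the median of all genes, against -2.05 and -2.29 in the main analysis. The count was 6 (Hdac7 and Hdac10 added) with DESeq2 size factors (38.4% of all genes called) and the DESeq2 Wald test (19.6%). It was also 6 without WT-untreated replicate 3 (36.1%) or KO-untreated replicate 1 (46.2%).

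Within the WT label, coculture was compared with no treatment. Between WT-NAC and WT-untreated libraries, 2 of 10 genes were called, both higher with NACs, where 8.52% of 11912 genes were called and 4.19% were called higher. Hdac6 rose by a log2 fold change of 1.31 (SE 0.44, edgeR adjusted p = 0.0473) and Hdac5 by 1.18 (SE 0.40, edgeR adjusted p = 0.0482). Their groups overlapped, since WT-NAC replicate 2 read 4.12 CPM for Hdac6 and 88.6 CPM for Hdac5, within the untreated range. Hdac10 had 1.01 (edgeR adjusted p = 0.0782), Hdac7 0.71 (0.187), Hdac2 -0.68 (0.214) and Hdac1 -0.80 (0.122). Neither Hdac5 nor Hdac6 was called by limma-voom (2.79% of all genes called), library totals alone (0%), no filter (1.74%) or one fit of all 18 libraries (0%). With library totals alone, Hdac5 and Hdac6 stood at 1.22 and 1.31 relative to the median of all genes, against 1.28 and 1.41 in the main analysis. With the replicate number as a block Hdac10 alone was called, against 15% of all genes. Without WT-NAC replicate 2 the 4 genes Hdac1, Hdac5, Hdac6 and Hdac10 were called, a share near the 34.2% of all genes called in that fit. Leaving out any of WT-untreated replicates 1 and 2 and WT-NAC replicates 1 and 3 left none, against 0.169% to 0.375% of all genes. With the GC content and length offset none was called, as 0 of all 11912 genes were, and Hdac5 stood at 0.50 and Hdac6 at 1.07. The WT-NAC libraries also stood apart from the WT-untreated ones, without overlap, in mean GC content (52.9% to 54.2%), in the ribosomal protein share (5.70% to 9.59%), in the mitochondrial share (0.294% to 0.404%) and in the summed level of 8 B cell markers (5.94 to 19.9 CPM against 2.78 to 5.27). Of these markers Cd79b was called higher (1.63, edgeR adjusted p = 0.0308). Their part in the result was not tested beyond the offset for GC content.

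Within the KO label the estimates of the same genes had the other sign. Between KO-NAC and KO-untreated libraries none of 9 genes was called by edgeR, against 6.54% of 12143 genes. The DESeq2 Wald test called 0, against 8.46% of all genes tested, and limma-voom called 1 (Hdac2), against 13.3%. By edgeR 4 had an unadjusted p under 0.05, against 30.4% of all genes tested. Hdac2 had a log2 difference of 1.23 (SE 0.46, edgeR adjusted p = 0.115), Hdac1 0.98 (SE 0.39, edgeR adjusted p = 0.127), Hdac5 -0.86 (SE 0.38, edgeR adjusted p = 0.161) and Hdac6 -0.98 (SE 0.39, edgeR adjusted p = 0.131). These comparisons share their untreated or NAC libraries with the genotype comparisons above. Without KO-untreated replicate 1, Hdac2, Hdac5 and Hdac6 were called, near the share of 35.5% of all genes called in that fit. With the GC content and length offset Hdac2 stood at 0.56, Hdac1 at 1.04, Hdac5 at -0.20 and Hdac6 at -0.61. KO-NAC and KO-untreated libraries did not overlap in mean GC content (52.0% to 52.7% and 53.7% to 54.7%). Nor did their summed B cell (1.91 to 5.28 and 6.67 to 15.3 CPM) or fibroblast marker levels (7.83 to 46.4 and 76 to 110). The same held for erythroid or megakaryocyte markers (134 to 243 and 75.2 to 129) and proliferation genes (369 to 473 and 224 to 289). Of 10 macrophage markers 2, Mrc1 and Lyz2, were called higher with NACs, while 6 were below 0. Their part was not tested beyond that offset.

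ACs against NACs called none of the genes. Under the WT label 0 of 9 were called and 0 had an unadjusted p under 0.05, with estimates between -0.52 (Hdac6) and 0.38 (Hdac1), and 0 of 11844 genes (0%) were called (493, or 4.16%, at an unadjusted p under 0.05, 0 by DESeq2). Under the KO label 0 of 10 were called by edgeR, DESeq2 or limma-voom. Of all genes, edgeR called 7.38% of 12244, the DESeq2 Wald test 5.76% and limma-voom 5.87%. By edgeR 0 of the 10 had an unadjusted p under 0.05, against 25.3%. The estimates there ran from -0.44 (Hdac1, 95% interval -1.19 to 0.31) to 0.82 (Hdac4, SE 0.42, 95% interval -0.03 to 1.67, edgeR adjusted p = 0.216). Leaving out KO-AC replicate 2 made 1 call, Hdac5, where 23.9% of all genes were called.

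The make-up of the family moved with these differences. Hdac1 and Hdac2 together made 57.5% ± 4.42 (SD, n = 3) of the summed TPM of the 10 genes in WT-untreated libraries and 23.1% ± 7.55 in KO-untreated ones. They made 29.5% ± 18.8 in WT-NAC and 48.7% ± 3.60 in KO-NAC libraries, and 37.2% ± 13.7 in WT-AC and 36.5% ± 11.8 in KO-AC libraries. The WT-NAC figure hides a split, from 17.9% in the lowest library to 51.2% in the highest. Class IIa took up most of the rest, with 32.0% ± 3.26 in WT-untreated, 61.7% ± 3.96 in KO-untreated, 54.0% ± 17.2 in WT-NAC and 38.3% ± 3.70 in KO-NAC libraries. Class IIb ran from 5.37% to 17.3% over the 18 libraries. Its untreated groups did not overlap, at 5.37% to 10.4% in WT-untreated and 11.5% to 16.7% in KO-untreated libraries. With NACs the groups overlapped, at 11.4% to 17.3% under the WT label and 9.51% to 11.6% under the KO label. They also overlapped with ACs, at 10.8% to 14.9% and 7.93% to 12.4%. The summed TPM of the 10 genes was 83.3 ± 15.1 in WT-untreated and 78.5 ± 44.1 in KO-untreated libraries, a difference well inside the spread. It was 71.4 ± 17.4 (57.1 to 90.7) in WT-NAC and 101.0 ± 18.0 (89.3 to 122.0) in KO-NAC libraries, where the ranges just overlapped, and 87.6 ± 19.9 in WT-AC and 95.9 ± 21.5 in KO-AC libraries.

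**Figure D4:**
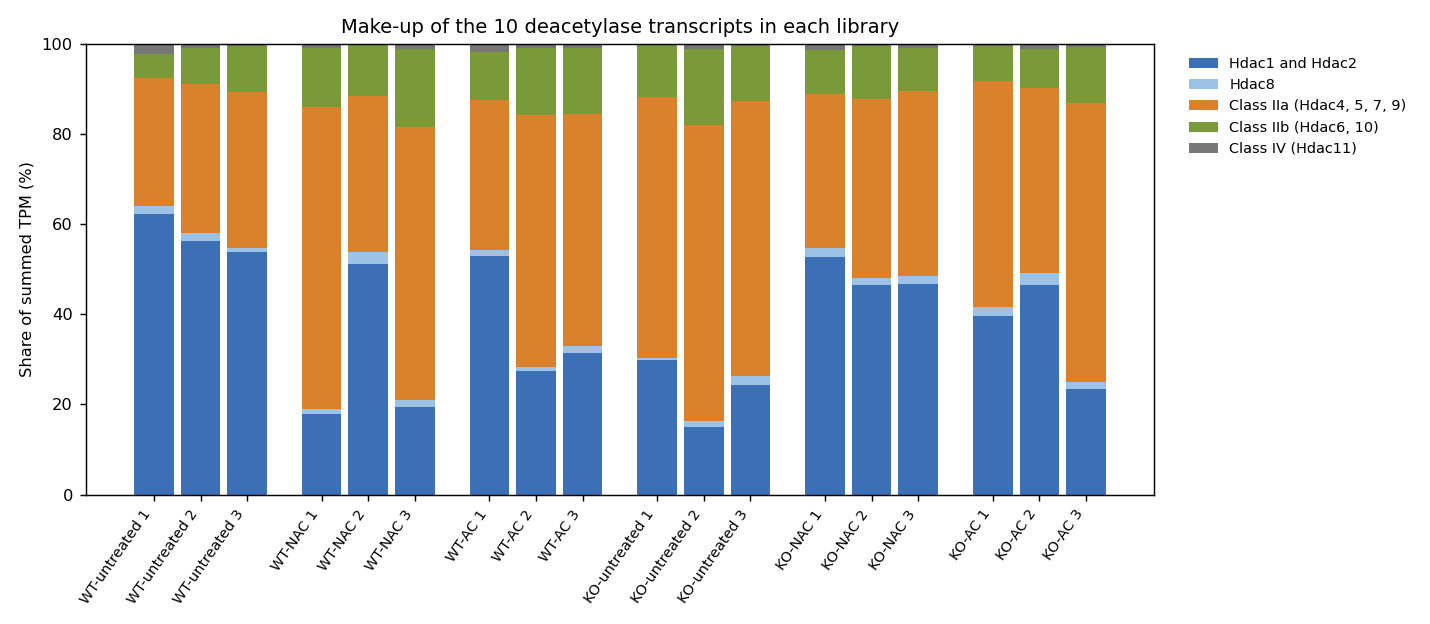
Share of the summed TPM of the 10 genes (vertical axis, percent) in each of the 18 libraries (horizontal axis), stacked by class with Hdac1 and Hdac2 apart from Hdac8. In the 3 WT-untreated libraries Hdac1 and Hdac2 make 53.7% to 62.4%, and in the 3 KO-untreated libraries 15.0% to 29.9%. WT-NAC replicate 2, at 51.2%, differs from the other 2 WT-NAC libraries.

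The same genes varied together from library to library. Over 18 libraries Hdac5 and Hdac6 had a Pearson r of 0.929 on log2 CPM, and 0.907 after each group's mean had been removed. Hdac7 and Hdac10 had an r of 0.823. Hdac2 ran against Hdac5 (r -0.873, and -0.842 within groups) and against Hdac6 (r -0.815). Hdac1 and Hdac2 had an r of 0.409 over all libraries but -0.127 within groups, so their likeness lay between the groups. These are descriptions over libraries in which all genes share the depth and base composition of their library, and both differ between libraries. Levels also moved with the mean GC content of the library: r was 0.768 for Hdac7, 0.746 for Hdac5, 0.697 for Hdac6 and 0.66 for Hdac10, against -0.718 for Hdac1 and -0.69 for Hdac2. The transcripts themselves hold 59.8% GC for Hdac5, 60.2% for Hdac7, 56.3% for Hdac10 and 52.6% for Hdac6, and 50.0% for Hdac1 and 41.9% for Hdac2. The other genes had weaker relations to library GC content, with an r of 0.327 for Hdac4 (52.5% GC, close to Hdac6), -0.261 for Hdac8 (43.0%), -0.26 for Hdac9 (45.0%) and -0.064 for Hdac11 (57.4%).

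**Figure D5:**
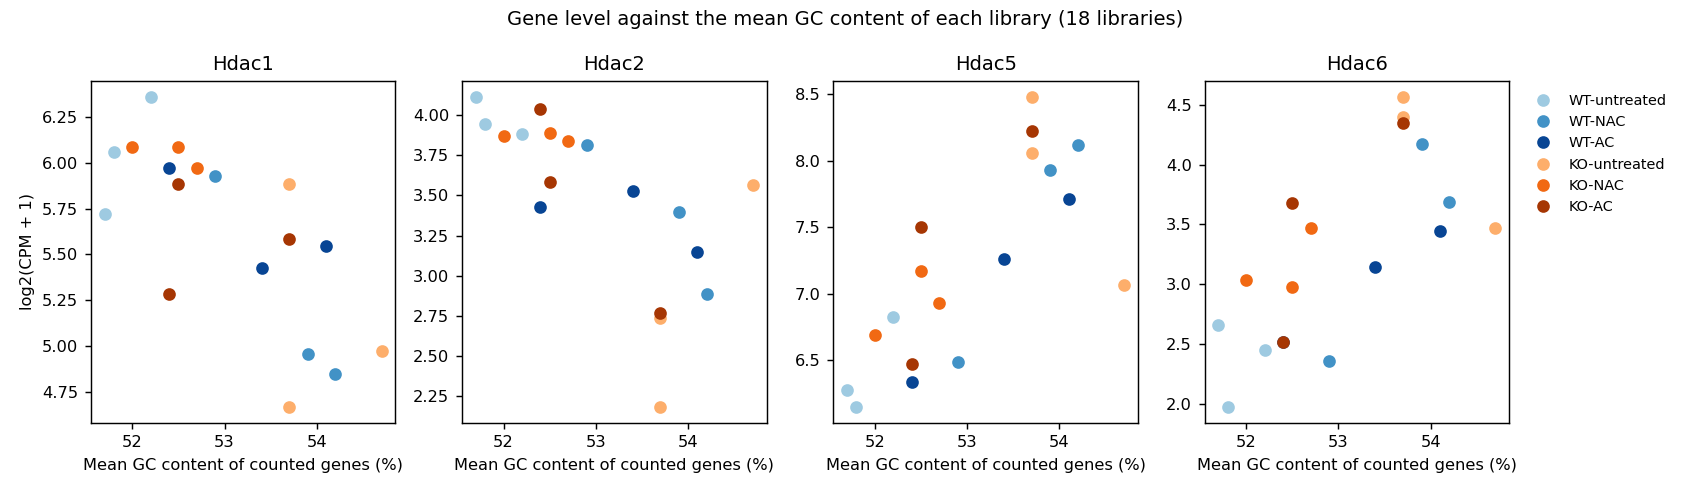
Level of Hdac1, Hdac2, Hdac5 and Hdac6 as log2(CPM + 1) (vertical axes) against the mean GC content of the counted genes (horizontal axes, percent) in 18 libraries, coloured by group. Hdac5 and Hdac6 are higher (r 0.746 and 0.697) and Hdac1 and Hdac2 lower (r -0.718 and -0.69) in libraries of higher GC content, and the WT-untreated libraries (51.7% to 52.2%) lie below the KO-untreated ones (53.7% to 54.7%), with libraries of other groups within both ranges.

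The genes whose pattern over the 18 libraries was most like each member's were found by the same correlation. For Hdac5 they were Tmem214 (r 0.981), Ppp1r9b (0.979) and Hif1an (0.977), and for Hdac6 they were Nol6 (0.951), Anks1 (0.946) and Cluh (0.942). For Hdac2 they were Canx (0.944), Zbtb44 (0.937) and Rnf111 (0.934), and for Hdac1 they were Med17 (0.934), Mpp1 (0.921) and Pmpcb (0.906). Hdac10 was closest to Zfp414 (0.967), Hdac7 to Ccnd3 (0.941), Hdac4 to Zc3h13 (0.933) and Hdac8 to Chd1l (0.893). The low genes had weaker likenesses, 0.764 for Hdac11 and 0.757 for Hdac9 at most.

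Since Hdac3 did not follow the labels, each gene was also set against the level of Hdac3 over the 18 libraries. Hdac11 had the strongest relation, lower where Hdac3 was higher (Pearson r -0.618, permutation p = 0.00654, adjusted over 10 genes 0.0654; Spearman rho -0.583, permutation p = 0.0129, adjusted 0.129). It was -0.506 without the 2 libraries farthest from the median of Hdac3, -0.705 within the WT label and -0.535 within the KO label. Neither adjusted value passes 0.05, Hdac11 rests on few counts, and 0.717% of all expressed genes had a lower r. The other 9 genes had r between -0.247 (Hdac2) and 0.377 (Hdac5), with a lowest permutation p of 0.125. This relation was added after the level of Hdac3 had been seen. The permutation exchanged all 18 libraries without regard to group or shared animals, so its p-values may be too small. Counts over the whole gene also do not measure how much intact Hdac3 a library holds.

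Among 65 tested genes that work with or beside the deacetylases, in 5 lists, 6 (9.23%) were called between the genotype labels in untreated BMDMs, against 11.6% of all genes tested. Of 21 tested subunits of the Hdac1 and Hdac2 complexes, 1 was called higher in untreated KO libraries (Mbd3, a NuRD subunit, log2 fold change 1.44, edgeR adjusted p = 0.0426) and 1 lower (Mier1, which binds Hdac1 and Hdac2, -1.86, edgeR adjusted p = 0.0355). Of 15 partners of class IIa proteins, 1 was higher (Mef2d, a MEF2 factor, 1.41) and 1 lower (Ywhae, an adaptor that holds phosphorylated class IIa proteins in the cytoplasm, -1.29), both at an edgeR adjusted p of 0.0483. Of 10 lysine acetyltransferases, Kat6a (-1.73, edgeR adjusted p = 0.0373) and Hat1 (-1.47, edgeR adjusted p = 0.0445) were lower. No gene at all was called in untreated BMDMs with the GC content and length offset, so none of these calls held there. The same was true without WT-untreated replicate 2, WT-untreated replicate 3 or KO-untreated replicate 3. None of 7 sirtuins, the NAD-dependent deacetylases, and none of 12 bromodomain genes, whose proteins read acetyl-lysine, was called by edgeR untreated. With ACs, with NACs and over all treatments no gene of these 5 lists was called by edgeR, against 3.75%, 0.864% and 0% of all genes tested. Over all treatments the estimates ran from -0.62 (Mier1) to 0.78 (Gatad2a) for the complex subunits and from -0.62 (Prkd3) to 0.83 (Sik3) for the class IIa partners. In the untreated comparison, where 11.6% of all genes were called, 2 of 10 macrophage markers were also called lower, Lyz2 (-1.94) and Mrc1 (-1.51). The Lyz2 promoter drives Cre in the KO model, so Lyz2 is not a marker independent of the genotype. With NACs the estimates of Lyz2 and Mrc1 were 1.20 and 1.13, with ACs 0.80 and 0.38, and none of these was called. Untreated, 6 of the 10 markers had estimates above 0, among them Csf1r (1.30) and Spi1 (1.07), which were not called. The median of the 10 was 0.43. Of 4 tested erythroid or megakaryocyte markers 1, Itga2b (median 1.77 CPM), was called higher (3.00), while Pf4, the most abundant of them (median 108 CPM), was at -0.47 and not called. No granulocyte, B cell, T or NK cell or fibroblast marker tested was called by edgeR there. The summed level of the 8 B cell markers nevertheless did not overlap between these groups (2.78 to 5.27 CPM under the WT label, 6.67 to 15.3 under the KO label), nor did that of 10 proliferation genes (312 to 556 CPM and 224 to 289). Their part in the deacetylase values was not tested.

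Sequence copies and overlapping genes touch a few of these counts. Hdac1 has a processed pseudogene, Gm10093, that is 99.4% identical over 1444 bases and had a median of 15 counts against 750 for Hdac1, so reads could be split between them. The exons of Hdac4 share 22.4% of their bases with Gm26720 on the opposite strand, which had at most 1 count. Hdac7 shares 29 exonic bases with Slc48a1 on the opposite strand, a gene of 2813 to 21977 counts a library, and Hdac11 overlaps Gm44002, with 0 counts. Whether strand was used in counting is not given in the sources used here. The paper describes alignment to the mouse genome alone as a way to limit signal from human K562 RNA. Whether any such reads remained in the counts of cocultured libraries was not tested.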

How the data were processed

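Total RNA of 18 mouse BMDM cultures was sequenced, 3 in each of 6 groups given by the labels. Per the labels' processing notes the authors trimmed reads with Trimmomatic 0.36, aligned them with STAR 2.5.2b and counted them on GRCm38 genes with featureCounts of Subread 1.5.2. The deposited values are raw counts per gene, with exonic lengths beside them. The strand setting and the annotation release are not given in the sources used here. The start and end of 44858 of 49056 genes shared with GENCODE M21 were equal.

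The members and lists were chosen with earlier results of these data known. Here, edgeR 4.0.16 (R 4.3.3) was fitted on the counts of the groups compared, after filterByExpr (minimum count 10, total 15) and TMM scaling, with the robust quasi-likelihood test and Benjamini-Hochberg adjustment over all genes tested. Calls had an adjusted p under 0.05. Intervals are 95%. Single genes were also tested by exact permutation of log2(CPM + 1). TPM used the deposited exonic lengths and is not TMM-scaled. GC content came from the longest GENCODE M21 transcript, and copies were found with blastn 2.17.0 (at least 95% identity over 150 bases). Named genes were every member, Hdac3, up to 3 genes most like a member, copies and overlapping genes, and a selection from the other lists. That selection held called genes, those with extreme estimates over all treatments and some markers that were not called. Called genes of the other lists are not all named. Alternatives were DESeq2 1.42.0 (size factors, Wald test), limma-voom 3.58.1, library totals, other filters, one fit of all libraries, a replicate block, a GC content and length offset (mgcv 1.9.3) and leaving out each library. On simulated counts for 12101 genes of the untreated comparison, 200 of them changed and each gene drawn on its own, edgeR recovered 55% of genes changed by a log2 of 2 and 90% of those changed by 3. Shifts shared by many genes of a library were not simulated. Total counts of 4704491 to 26421267 a library limit the precision of Hdac8, Hdac9 and Hdac11, and replicates differed by more than counting noise. The study used the Wald test of DESeq2.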

Additional observations from a re-analysis of the deposited data

Results flagged for a closer look

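The genotype label difference in BMDMs with NACs was not the same as in untreated BMDMs for 4 of the 10 genes, by an interaction term added after the single comparisons had been seen (edgeR). The change in the log2 difference was 1.89 for Hdac1 and 2.06 for Hdac2, toward higher levels under the KO label with NACs, and -1.92 for Hdac5 and -2.16 for Hdac6, toward lower ones. Of all 13005 genes tested, 34.8% were called in the same test, so the share among these genes is near the background. The count was 1 (Hdac1) with the GC content and length offset, against 16.7% of all genes, with Hdac6 at -1.62, Hdac2 at 0.94 and Hdac5 at -0.72. It was 2 (Hdac1 and Hdac2) with library totals alone, against 30.8% of all genes. That scaling moved the median of all genes from 0.12 to 0.70. Relative to the median Hdac5 and Hdac6 stood at -1.96 and -2.18, against -2.05 and -2.29 in the main analysis. The count was 6 with DESeq2 size factors (38.4% of all genes called) and the DESeq2 Wald test (19.6%). It was 2 to 6 on leaving out single libraries (22.3% to 46.2%). Hdac5 and Hdac6 alone were called without WT-NAC replicate 1, WT-NAC replicate 3 or KO-untreated replicate 2. Cell markers were called in the same test too: 5 of 10 macrophage markers (Mrc1 2.90, Lyz2 3.38 and Itgam 1.95 upward, Cd14 -1.82 and Spi1 -1.47 downward), 2 of 4 tested B cell markers (Cd79a -3.98 and Cd79b -2.65), and 1 each of the granulocyte (Ltf -1.85), fibroblast (Pdgfrb -2.15) and erythroid or megakaryocyte markers (Pf4 1.70). Their part in the values was not tested, and Lyz2 is also the gene whose promoter drives Cre in the KO model. WT-untreated libraries correlated best with KO-NAC libraries (r 0.978 to 0.987), and WT-NAC replicates 1 and 3 with KO-untreated replicate 2 (r 0.968 and 0.98). Whether libraries of these groups carry each other's labels was not tested, and such an exchange would change what the genotype differences mean.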

How the results depend on the processing

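Of 901 estimates for single genes under other settings, 773 kept the direction and the side of the threshold, 50 lost a call, 24 gained one and 54 changed sign. No estimate that changed sign was called. In untreated BMDMs, the count of the 10 genes called between the genotype labels was 1 in the main analysis, 2 with DESeq2 size factors, 2 with library totals alone (Hdac1 and Hdac2), 2 with the DESeq2 Wald test, 3 with limma-voom, 2 with no filter, 2 with at least 10 counts in every library, 3 with all 18 libraries in one fit, 0 with the GC content and length offset, 0 with that offset and the replicate block, and 0 to 4 on leaving out single libraries. For WT-NAC against WT-untreated it was 2 in the main analysis, 1 with DESeq2 size factors, 0 with library totals alone, 1 with the DESeq2 Wald test, 0 with limma-voom, 0 with no filter, 0 with all 18 libraries in one fit, 1 with the replicate block (Hdac10), 0 with the GC content and length offset, 0 with that offset and the block, and 0 to 4 on leaving out single libraries. For KO-NAC against KO-untreated it was 0, then 1 with library totals alone, 1 with limma-voom (both Hdac2) and 0 to 3 on leaving out single libraries. Relative to the median of all genes, Hdac2 stood at 1.27 there both with library totals alone and in the main analysis. Leaving out single libraries gave 0 to 2 for the genotype comparison with NACs and 0 to 1 for ACs against NACs under the KO label. For the genotype difference with NACs against that without treatment it was 4, then 6 with DESeq2 size factors and with the Wald test, 2 with library totals alone, 1 with the offset, with or without the block, and 2 to 6 on leaving out single libraries. The counts of the other 4 comparisons stayed at 0. Over these settings the share of all genes called ran from 0% to 46.3% between the genotype labels in untreated BMDMs. It ran from 0% to 34.2% for WT-NAC against WT-untreated and from 0% to 35.5% for KO-NAC against KO-untreated. For the genotype difference with NACs against that without treatment it ran from 13.9% to 46.2%. The cause was not tested.

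Library totals alone shifted the median log2 difference of all genes to -0.42 in untreated BMDMs, from 0.06, and relative to it Hdac6 stood at 1.83 and Hdac2 at -1.37, against 1.91 and -1.35 in the main analysis. There 26.2% of calls were higher under the KO label in the main analysis, 41.9% with DESeq2 size factors and 2.25% with library totals alone. The count of all genes called was 1404, or 3179 with the DESeq2 Wald test, 0 with the GC content and length offset and 0 to 5887 on leaving out single libraries.

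The 16 estimates that changed sign under some setting lay between -0.43 and 0.43 in the main analysis, 5 of them beyond 0.3 in size. With ACs, Hdac1 was 0.016 with no filter and Hdac4 -0.082 with the offset and block; leaving out single libraries gave -0.23 to 0.079 for Hdac1, -0.18 to 0.50 for Hdac2 and -0.16 to 0.68 for Hdac5. With NACs, Hdac11 was -0.0069 with DESeq2 size factors, -0.014 with the Wald test and -0.044 in one fit of all libraries. Hdac8 was 0.27 with library totals alone, 0.013 with limma-voom, 0.0555 with no filter and 0.020 with the replicate block, Hdac4 0.017 with library totals alone, and Hdac7 0.12 with the offset and 0.14 with the offset and block. Leaving out single libraries gave -0.74 to 0.11 for Hdac6, -0.17 to 0.31 for Hdac8 and -0.38 to 0.61 for Hdac11. Untreated, Hdac8 was -0.15 with library totals alone and Hdac4 -0.15 with the offset and block; leaving out single libraries gave -0.51 to 0.80 for Hdac4, -0.33 to 0.75 for Hdac8 and -0.99 to 0.46 for Hdac11. Over all treatments, Hdac7 was 0.0153 with DESeq2 size factors, 0.0157 with the Wald test and 0.0147 with no filter, Hdac4 -0.044 with limma-voom, -0.079 with the offset and -0.14 with the offset and block, and Hdac2 0.0017 with the offset. Leaving out single libraries gave -0.26 to 0.14 for Hdac1, -0.35 to 0.055 for Hdac2, -0.14 to 0.33 for Hdac4 and -0.12 to 0.15 for Hdac7. Other estimates kept their sign but moved as single libraries were left out, from 0.105 to 1.04 for Hdac6 with ACs, 0.0025 to 0.60 for Hdac4 with ACs and -0.46 to -9.5e-05 for Hdac7 with NACs. Also with NACs, Hdac5 ran from -0.96 to -0.37, Hdac10 from -0.71 to -0.32, Hdac9 from -1.06 to -0.29 and Hdac2 from 0.33 to 0.89. With ACs, Hdac10 ran from -1.45 to -0.66 and Hdac11 from -1.12 to -0.49.

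The replicate block changed no call of the 10 genes between the genotype labels. Over all genes it moved the count called from 461 to 373 with ACs, 103 to 217 with NACs and 1404 to 1336 untreated. Same-numbered libraries had correlations of -0.493 to 0.215 in their deviations from group means, and no comparison had all 3 above 0.1, so the numbers were not taken as pairs. Without length (CPM), 5 of the 10 genes kept their place in the order of medians and Hdac10, Hdac7, Hdac4, Hdac6 and Hdac8 moved.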
